A study of Mus musculus with 12 samples.

Results

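Neurotrophic and fibroblast growth factors were followed as a set of 10 genes, chosen by symbol among the 32867 genes of the deposited table: Fgf1, Fgf2, Fgfr1, Bdnf, Gdnf, Ntrk2, Pdgfa, Manf, Mdk and Igf1. All 10 were found under 1 gene identifier each, and all 10 passed the filter on low counts in every comparison. RNA was sequenced from whole retina of 3 mouse models of inherited retinal degeneration and of C3H wild-type mice. Each of the 4 groups holds 3 samples, and each model was taken at the day that the labels call the peak of photoreceptor cell death. Pde6b rd1 mice, at postnatal day 13, and Pde6b rd10 mice, at day 23, carry different mutations of the rod phosphodiesterase subunit gene Pde6b. Prph rd2 mice, at day 29, carry a mutation of Prph2, which encodes the outer segment protein peripherin 2. The C3H mice carry the wild-type alleles of both genes, and their 3 samples are labelled day 13, 23 and 29, 1 sample each. By the study's methods, Pde6b rd1, Prph rd2 and C3H share the C3H background and Pde6b rd10 is on C57Bl6/J, while the labels place Prph rd2 on C57BL6/J. Day therefore changed together with the mutation and cannot be told apart from it. The same holds for the background of Pde6b rd10 and, if the labels are right, of Prph rd2, and for the sex makeup of the groups, given below.

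Fibroblast growth factors (FGFs) bind receptor tyrosine kinases on the cell surface and switch on Ras and MAP kinase signalling, whose own brakes, among them the Sprouty proteins, are target genes of the pathway. Neurotrophins such as BDNF signal in the same manner through Trk receptors, GDNF through RET, and IGF1, PDGF and midkine through receptors of their own. In the retina these factors come from Müller glia, microglia, vessels and neurons, and FGF2, BDNF and GDNF are known for prolonging the survival of photoreceptors when supplied from outside.

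The RefSeq promoters of GRCm38.p6 in the window from 250 bases before to 50 bases after the start site were available for 6 of the 10 genes. Fgf2, Ntrk2 and Igf1 have a single window each, and these 3 are printed, since Fgf2 and Ntrk2 were called higher in Pde6b rd10 and Igf1 was not. The windows were searched on both strands for 6 motifs: the GC box GGGCGG, the AP-1 motif TGANTCA, the STAT motif TTCNNNGAA, the cyclic AMP response element TGACGTCA (CRE), the TATA box TATAAA and the Egr1 motif GCGTGGGCG. Capitals mark the matches, none of which overlapped. All 3 genes lie on the + strand, Fgf2 with the window chr3:37348403-37348702, Ntrk2 with chr13:58806319-58806618 and Igf1 with chr10:87860861-87861160.
Fgf2 promoter: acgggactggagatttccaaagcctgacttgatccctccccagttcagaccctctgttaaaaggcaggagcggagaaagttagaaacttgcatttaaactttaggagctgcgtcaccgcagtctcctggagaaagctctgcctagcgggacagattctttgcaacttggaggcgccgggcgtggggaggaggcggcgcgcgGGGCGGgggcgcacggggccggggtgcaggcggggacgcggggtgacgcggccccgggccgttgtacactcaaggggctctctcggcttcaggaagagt
Ntrk2 promoter: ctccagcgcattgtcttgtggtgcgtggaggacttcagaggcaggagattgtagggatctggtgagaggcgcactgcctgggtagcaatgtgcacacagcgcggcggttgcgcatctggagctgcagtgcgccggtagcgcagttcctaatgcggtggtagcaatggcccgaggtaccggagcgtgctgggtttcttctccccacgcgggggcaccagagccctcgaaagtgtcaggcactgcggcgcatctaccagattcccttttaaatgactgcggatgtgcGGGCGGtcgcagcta
Igf1 promoter: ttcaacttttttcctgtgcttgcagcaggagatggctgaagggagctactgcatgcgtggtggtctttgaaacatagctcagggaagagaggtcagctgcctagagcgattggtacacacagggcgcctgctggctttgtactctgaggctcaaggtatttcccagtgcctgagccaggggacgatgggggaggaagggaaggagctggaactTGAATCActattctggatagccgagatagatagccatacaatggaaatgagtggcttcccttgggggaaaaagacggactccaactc
The Fgf2 window held 1 GC box, which starts at -49 from the start site, and had a GC content of 62.7%. The Ntrk2 window held 1 GC box past its start site and had a GC content of 61.3%, and the Igf1 window held 1 AP-1 match, starting at -37, with a GC content of 52.3%. The median GC content over all 32851 promoters was 52.7%, and 35.7% of them held a GC box and 7.81% an AP-1 match. STAT, CRE, TATA box and Egr1 letters, held by 8.30%, 1.79%, 13.6% and 0.612% of all promoters, were not in these 3 windows. These matches describe letters only.

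The reads counted on genes numbered 17049495 to 24755890 per sample, so that 3 counts, taken as the floor, corresponded to between 0.121 and 0.169 CPM, counts scaled to the library total with edgeR's TMM factors. Such floors cover counting error only. The rod genes Pde6b and Prph2 checked the labels. Pde6b was 0.223-fold of C3H in Pde6b rd1 (adjusted p = 1.66e-25) and Prph2 was 0.479-fold in Prph rd2 (adjusted p = 9.73e-09), while in Pde6b rd10 Pde6b was 0.675-fold (adjusted p = 3.09e-12). The C3H samples of 3 labelled days differed from each other as little as replicates of a single day, with a median absolute log2 difference over genes of 0.0806 to 0.101 between pairs, against 0.0841 to 0.104 in Pde6b rd1, 0.0912 to 0.140 in Pde6b rd10 and 0.115 to 0.158 in Prph rd2. No effect of the labelled day was visible over all genes in C3H, so that the C3H sample of a labelled day cannot be taken as matched for age. The sex makeup of the groups also differed. The summed CPM of 4 Y-linked genes was 284 to 309 in C3H, 197 to 232 in Pde6b rd10, 109 to 133 in Prph rd2 and 0 in Pde6b rd1, and its range within each group was narrow. Xist, expressed from the inactive X chromosome, stood at 0.386 to 0.518 CPM in C3H, 715 to 802 in Pde6b rd10, 1560 to 1982 in Prph rd2 and 3660 to 3893 in Pde6b rd1. Sex makeup therefore changed together with the mutation in every comparison and cannot be told apart from it. The samples of a group are biological replicates by the study's description, while the labels do not say whether they came from separate animals or pools. Every Pde6b rd10 and Prph rd2 sample held both Xist and Y-linked reads, so that none of these came from a single animal. Whether the 3 samples of a group were splits of a single pool is not known. The p-values measure only the spread between these samples, which for such splits would leave out the spread between animals.

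Levels between genes were compared on FPKM, which divides by gene length. In C3H, Manf at 11.3 FPKM, Fgf1 at 10.5 and Igf1 at 10.2 were the most abundant of the 10, and the ranges of Fgf1 and Igf1 overlapped. Ntrk2 at 4.87 FPKM, Pdgfa at 3.14, Fgfr1 at 2.91 and Mdk at 2.84 followed, with Pdgfa and Fgfr1, and Fgfr1 and Mdk, overlapping. Bdnf at 1.66 FPKM and Fgf2 at 1.59 could not be ordered, and Gdnf came last at 0.149 ± 0.0107 (SD, n = 3). This order changed most in Pde6b rd10, where Fgf2 stood first at 40.5 ± 2.18 FPKM (SD, n = 3), above Fgf1 at 11.5 FPKM with no overlap. In Pde6b rd1, Mdk stood in the third place at 5.60 FPKM and Fgf1 in the fifth at 4.75 FPKM, where its range overlapped with that of Ntrk2 in the fourth, and in Prph rd2 Fgf1 stood first at 14.8 FPKM.

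**Figure D1:**
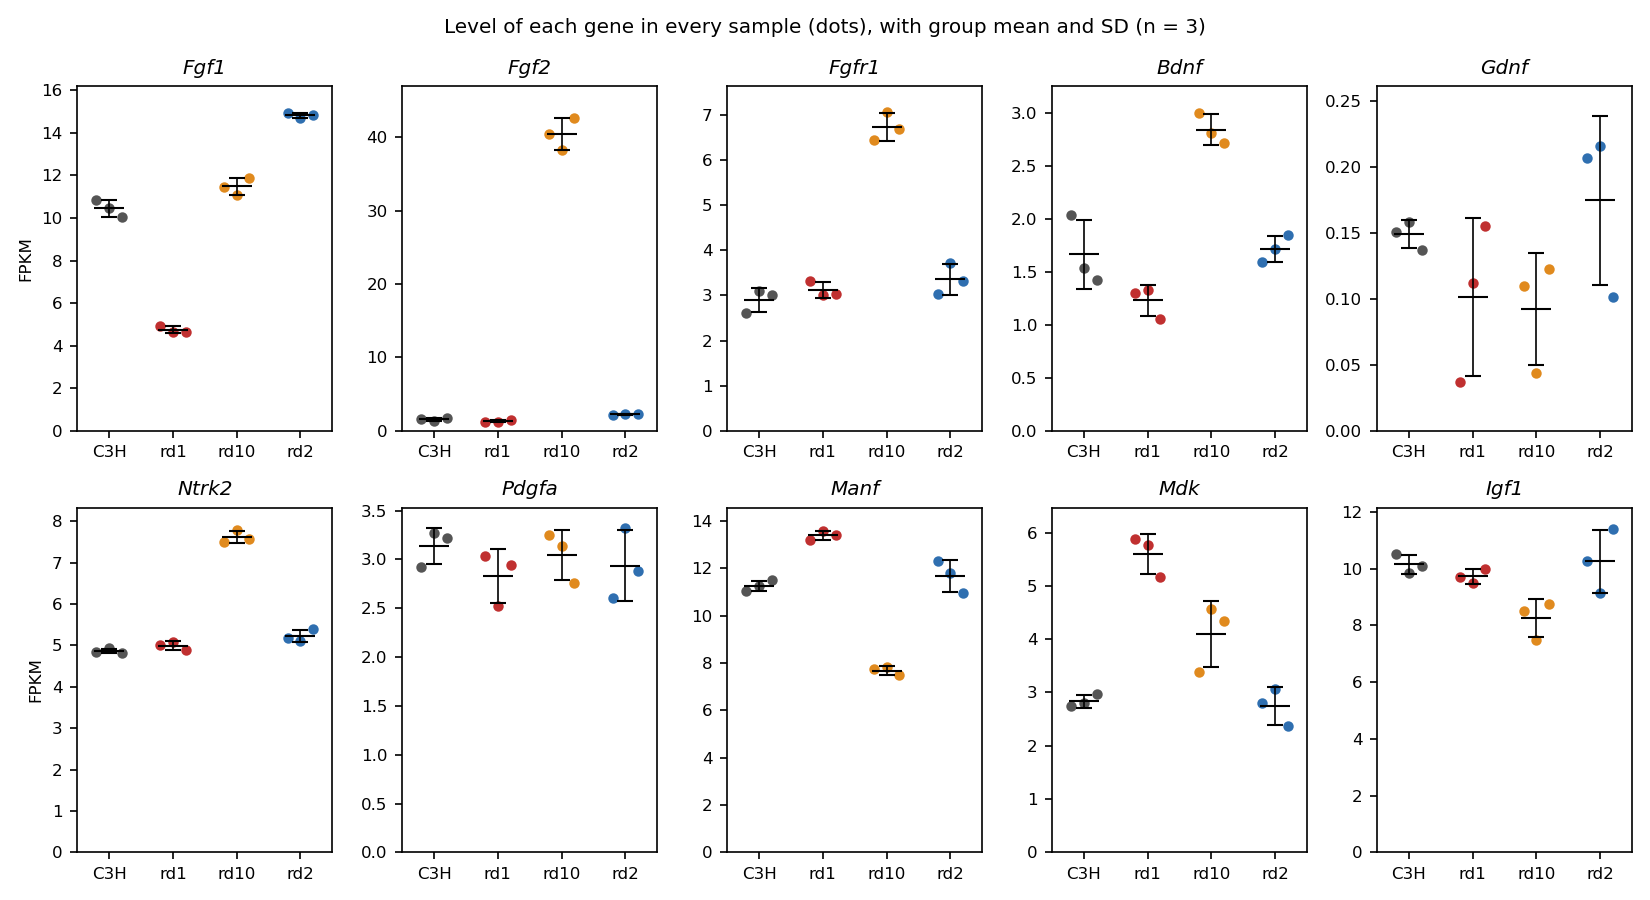
FPKM of each of the 10 genes in every sample (dots; C3H grey, Pde6b rd1 red, Pde6b rd10 orange, Prph rd2 blue), with the group mean and SD (n = 3) in black and every axis starting at 0. Fgf2 lies between 38.3 and 42.7 FPKM in the Pde6b rd10 samples and at or under 2.29 FPKM in all others, Fgf1 is lowest in Pde6b rd1, and Gdnf stays under 0.22 FPKM.

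Which of these factors differed between each degenerating retina and C3H was asked 1 model at a time. Genes with an unadjusted p under 0.05 and at least a 1.5-fold difference, the study's thresholds, are the called genes. Each adjusted p comes from edgeR's quasi-likelihood test and the Benjamini-Hochberg method over every gene of the comparison. In Pde6b rd10, 5 of the 10 genes were called, 4 higher (Fgf2, Fgfr1, Bdnf and Ntrk2) and 1 lower (Manf), where 23.9% of the 18704 genes tested were called. In Pde6b rd1, 2 of the 10 were called, Mdk higher and Fgf1 lower, where 15.0% of 18310 genes were. In Prph rd2 none of the 10 was called, where 4.57% of 18581 genes were. There, 2 of the 10 had an unadjusted p under 0.05, and the DESeq2 Wald test also called none. The median log2 fold change of the 10 was -0.17 for Pde6b rd1, 0.27 for Pde6b rd10 and 0.05 for Prph rd2, beside -0.01, 0.00 and 0.00 over all genes tested. With an adjusted p under 0.05 and no fold minimum, 6, 7 and 2 of the 10 passed in these models, where 43.2%, 54.1% and 9.70% of all genes did.

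**Figure D2:**
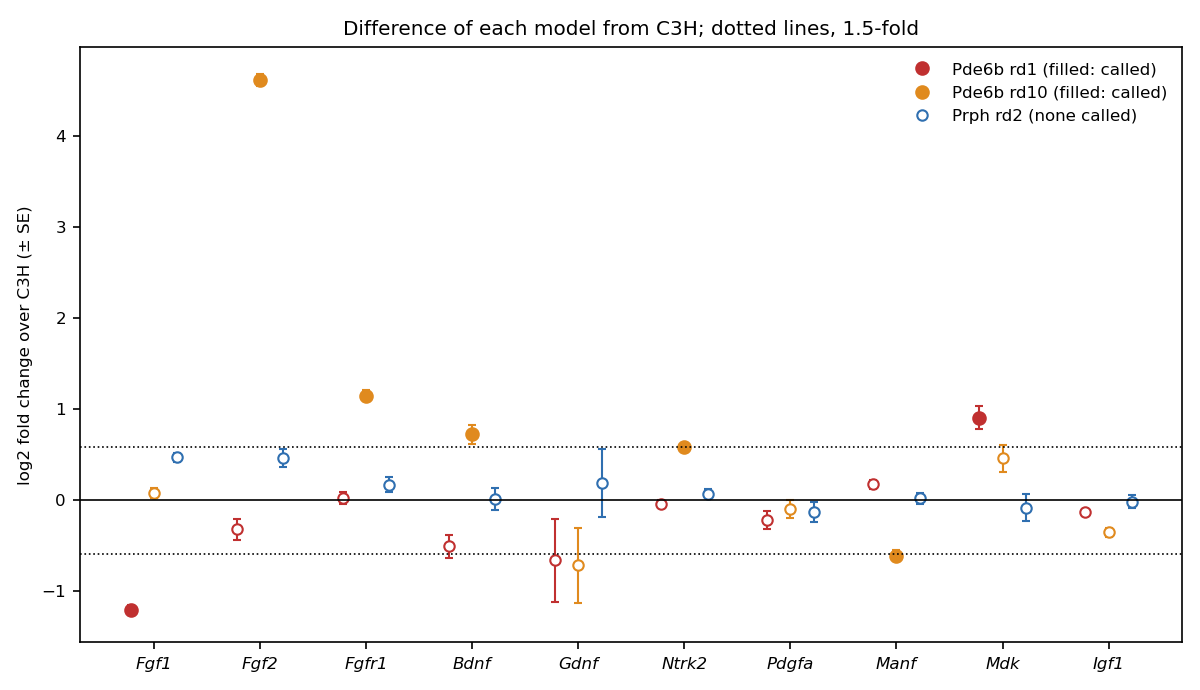
log2 fold change over C3H of each of the 10 genes in Pde6b rd1 (red), Pde6b rd10 (orange) and Prph rd2 (blue), with bars for ± SE, filled circles for called genes and dotted lines at 1.5-fold. Fgf2 in Pde6b rd10 stands apart at 4.62, all Prph rd2 circles are open, and Gdnf has the widest bars.

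Fgf2 encodes basic fibroblast growth factor, a heparin-binding ligand without a secretion signal. Its gene lies on chromosome 3 from 37348346 to 37410108 in GENCODE vM21 (GRCm38). It stood at 11.5, 9.70 and 12.3 CPM in the C3H samples, 7.94, 8.29 and 10.1 in Pde6b rd1, 14.7, 15.6 and 15.7 in Prph rd2, and 274, 259 and 287 in Pde6b rd10. Every Pde6b rd10 sample was far above every other sample, and the Prph rd2 samples lay above those of C3H without overlap. In Pde6b rd10 the log2 fold change over C3H was 4.62 (SE 0.07, adjusted p = 7.33e-22), a 24.6-fold difference, and its p was the sixth smallest of all genes tested, although 226 of the genes tested had a larger fold change. In Prph rd2 it was 0.46 (SE 0.10, adjusted p = 0.00774), a 1.38-fold difference that is under the fold threshold, and in Pde6b rd1 it was -0.32 (SE 0.11, adjusted p = 0.0233), also not called.

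Other genes at the Fgf2 locus carried more reads in Pde6b rd10 as well. Nudt6, which runs on the opposite strand and shares 640 of the 6782 exon bases of Fgf2, had 192, 109 and 148 counts in Pde6b rd10 and 31 to 49 in the other 9 samples, with a log2 fold change over C3H of 1.90 (SE 0.17, adjusted p = 5.23e-09). Fgf2os, an antisense gene that overlaps Fgf2 on the opposite strand and shares none of its exon bases, had 279, 209 and 240 counts in Pde6b rd10 and 0 to 5 in the other 9 samples. The libraries kept the strand, but the strand setting of the read counting is not given in the sources used here, so reads in the bases that Fgf2 and Nudt6 share cannot be told apart with certainty. For the same reason, reads from any Fgf2 introns that lie in Fgf2os cannot be told apart from those of Fgf2os. The counts of the 2 neighbours are small beside the 4862 to 6794 counts of Fgf2 in these samples.

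Fgf1, acidic fibroblast growth factor, binds all FGF receptors. It stood at 51.8, 50.2 and 48.6 CPM in C3H, 22.1, 20.8 and 21.1 in Pde6b rd1, 53.1, 51.4 and 54.9 in Pde6b rd10, and 70.2, 68.7 and 69.7 in Prph rd2. The Pde6b rd1 samples were below and the Prph rd2 samples above all others, and C3H and Pde6b rd10 overlapped. The log2 fold change over C3H was -1.21 in Pde6b rd1 (SE 0.06, adjusted p = 1.91e-14), a 0.433-fold level. In Prph rd2 it was 0.47 (SE 0.05, adjusted p = 5.26e-05), a 1.39-fold difference under the fold threshold, and in Pde6b rd10 0.08 (SE 0.05, adjusted p = 0.206). In whole tissue, fewer cells of a type and less RNA per cell cannot be told apart.

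Fgfr1, a receptor tyrosine kinase for both ligands, lies on chromosome 8 from 25513654 to 25575718 (GENCODE vM21, as for all positions of genes here). It stood at 26.5, 31.6 and 31.0 CPM in C3H and at 63.5, 69.4 and 65.6 in Pde6b rd10. The Pde6b rd10 samples were above all others, while Pde6b rd1, at 28.5 to 31.6 CPM, and Prph rd2, at 30.3 to 36.9 CPM, overlapped with C3H. The log2 fold change in Pde6b rd10 was 1.15 (SE 0.06, adjusted p = 3.29e-12), against 0.03 (SE 0.07) in Pde6b rd1 and 0.17 (SE 0.08) in Prph rd2.

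Bdnf encodes brain-derived neurotrophic factor, the ligand of TrkB, on chromosome 2 from 109674700 to 109727007. It stood at 13.0, 9.87 and 9.20 CPM in C3H, 7.80, 7.95 and 6.41 in Pde6b rd1, 10.01, 10.7 and 11.6 in Prph rd2, and 18.6, 17.4 and 16.8 in Pde6b rd10. Pde6b rd10 was above and Pde6b rd1 below C3H without overlap, and the C3H sample labelled day 13 was the highest of its group. The log2 fold change was 0.72 in Pde6b rd10 (SE 0.11, adjusted p = 7.06e-06), 0.02 in Prph rd2 (SE 0.12, adjusted p = 0.960) and -0.50 in Pde6b rd1 (SE 0.12, adjusted p = 0.00204). The last of these is a 0.705-fold level and was not called. Against the C3H sample labelled day 13 alone, which cannot be taken as matched for age, this log2 fold change was -0.81. Without C3H sample 3 it was -0.60 and was called. An antisense gene shares 896 of the 6217 exon bases of Bdnf and had 3 to 18 counts in every sample.

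Ntrk2 encodes TrkB, the BDNF receptor, on chromosome 13 from 58806569 to 59133970, and its promoter is printed above. It stood at 96.2, 98.1 and 96.9 CPM in C3H and at 144, 150 and 145 in Pde6b rd10, with 91.6 to 94.4 in Pde6b rd1 and 99.0 to 105 in Prph rd2. The 4 groups did not overlap, with Pde6b rd10 highest and Pde6b rd1 lowest. In Pde6b rd10 the log2 fold change was 0.59 (SE 0.04, adjusted p = 1.38e-10), a 1.51-fold difference that lies at the threshold, so that leaving out C3H sample 1 (0.58) or Pde6b rd10 sample 2 (0.57) ended the call. In Pde6b rd1 it was -0.04 (SE 0.04) and in Prph rd2 0.07 (SE 0.05). Of the circular RNAs of the separate junction table, 2 came from a gene of the set, both from Ntrk2. The circle mmu_circ_0004699 had 4 junction reads in Pde6b rd10 sample 3, 2 in Pde6b rd1 sample 1 and 0 in the rest, and mmu_circ_0000468 had at most 2 in any sample, so that no difference was detectable at this depth.

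Gdnf, glial cell line-derived neurotrophic factor, on chromosome 15 from 7810846 to 7837575, was close to the floor, with 10 to 14 counts in C3H, 3 to 11 in Pde6b rd1, 3 to 10 in Pde6b rd10 and 9 to 19 in Prph rd2. On the CPM scale every pair of groups overlapped except C3H and Pde6b rd10. The log2 fold changes, -0.66 (SE 0.46), -0.71 (SE 0.41) and 0.19 (SE 0.37) in Pde6b rd1, Pde6b rd10 and Prph rd2, had adjusted p of 0.262, 0.151 and 0.816, and differences of this size were not detectable at this depth. Without Pde6b rd1 sample 3, its value in Pde6b rd1 was -1.14 (adjusted p = 0.0951) and met the unadjusted thresholds.

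Manf, mesencephalic astrocyte-derived neurotrophic factor, is a protein of the endoplasmic reticulum that is induced when proteins misfold there. Its gene lies on chromosome 9 from 106838312 to 106891979, and Dcaf1, on the opposite strand, shares 146 of its 3524 exon bases. Manf stood at 40.0, 40.9 and 42.1 CPM in C3H, 44.8, 46.0 and 45.9 in Pde6b rd1, 43.9, 41.8 and 39.1 in Prph rd2, and 27.2, 27.5 and 26.2 in Pde6b rd10. Pde6b rd10 was below and Pde6b rd1 above all other groups, and Prph rd2 overlapped with C3H. The log2 fold change in Pde6b rd10 was -0.61 (SE 0.06, adjusted p = 2.44e-08), a 0.657-fold level near the threshold, and without Pde6b rd10 sample 3 it was -0.58 and not called. In Pde6b rd1 it was 0.18 (SE 0.05, adjusted p = 0.00594), a 1.13-fold difference.

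Mdk encodes midkine, a heparin-binding factor abundant in development, on chromosome 2 from 91929805 to 91932297. It stood at 3.73, 3.82 and 4.10 CPM in C3H, 7.50, 7.33 and 6.66 in Pde6b rd1, 4.47, 6.02 and 5.71 in Pde6b rd10, and 3.77, 4.07 and 3.17 in Prph rd2. Pde6b rd1 was above all other samples, Pde6b rd10 lay between it and C3H without overlap, and Prph rd2 overlapped with C3H. The log2 fold change was 0.91 in Pde6b rd1 (SE 0.13, adjusted p = 2.95e-06), a 1.88-fold difference, 0.46 in Pde6b rd10 (SE 0.15, adjusted p = 0.0113), not called, and -0.08 in Prph rd2 (SE 0.15). Without Pde6b rd10 sample 1, its value in Pde6b rd10 was 0.60 and was called.

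Igf1, insulin-like growth factor 1, on chromosome 10 from 87858265 to 87937042, stood at 107, 101 and 104 CPM in C3H and at 84.0, 73.9 and 86.1 in Pde6b rd10, with 90.3 to 96.4 in Pde6b rd1 and 91.0 to 114 in Prph rd2. The Pde6b rd10 samples were the lowest of all. The log2 fold change there was -0.35 (SE 0.05, adjusted p = 9.66e-06), a 0.783-fold level under the fold threshold, against -0.13 (SE 0.04, adjusted p = 0.00937) in Pde6b rd1 and -0.02 (SE 0.07) in Prph rd2. Pdgfa, the A chain of platelet-derived growth factor, on chromosome 5 from 138976014 to 138997370, was called in no comparison. Its samples lay between 7.56 and 10.5 CPM over all 4 groups, and its log2 fold changes over C3H were -0.21 (SE 0.10), -0.10 (SE 0.10) and -0.13 (SE 0.11) in Pde6b rd1, Pde6b rd10 and Prph rd2. An antisense gene shares 813 of the 3119 exon bases of Pdgfa and had 229 to 367 counts, more than Pdgfa in 11 of the 12 samples, so that the Pdgfa values are uncertain.

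The models were also set against each other, by contrasts in a fit of all 12 samples, where model, day and sex makeup, and for some pairs background, change together. Between Pde6b rd10 and Pde6b rd1, 6 of the 10 genes were called, where 28.8% of 19616 genes were. Fgf2 was 4.96 higher on the log2 scale in Pde6b rd10 (SE 0.08, adjusted p = 3.76e-20), Fgf1 1.31 (SE 0.05), Bdnf 1.25 (SE 0.12), Fgfr1 1.15 (SE 0.07) and Ntrk2 0.65 (SE 0.04), while Manf was -0.76 (SE 0.06), with adjusted p of at most 1.51e-08 for each. Between Prph rd2 and Pde6b rd1, 3 were called, where 16.9% were: Fgf1 at 1.70 (SE 0.05, adjusted p = 3.06e-15), Fgf2 at 0.81 (SE 0.10, adjusted p = 1.08e-06) and Mdk at -0.97 (SE 0.14, adjusted p = 9.27e-06). Between Prph rd2 and Pde6b rd10, 4 were called, where 19.7% were: Fgf2 at -4.16 (SE 0.07, adjusted p = 1.01e-19), Fgfr1 at -0.98 (SE 0.07, adjusted p = 7.06e-10), Bdnf at -0.71 (SE 0.11, adjusted p = 1.96e-05) and Manf at 0.63 (SE 0.06, adjusted p = 1.56e-08). Gdnf, Pdgfa and Igf1 were called in none of the 3. Leaving out single samples added calls. Between Prph rd2 and Pde6b rd1, Bdnf (0.54, SE 0.12) was called at 0.59 without Pde6b rd1 sample 1 or 2 or Prph rd2 sample 1, and Gdnf (0.87, SE 0.46) at 1.35 without Pde6b rd1 sample 3 and 1.14 without Prph rd2 sample 3. Between Prph rd2 and Pde6b rd10, Mdk (-0.55, SE 0.14) was called at -0.62 without Prph rd2 sample 2 and -0.68 without Pde6b rd10 sample 1, and Gdnf (0.90, SE 0.46) at 1.18 without Prph rd2 sample 3. By the adjusted p without the fold minimum, 8, 5 and 8 of the 10 passed in these 3 contrasts, where 57.2%, 39.8% and 43.9% of all genes did. These contrasts share samples with the comparisons with C3H.

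The other genes of the same pathways were taken from 9 lists of 81 genes, of which 77 are in the table. In Pde6b rd10, 8 of the 67 tested were called higher and 5 lower, 19.4% of them, beside 23.9% of all genes. In Pde6b rd1, 2 of 64 were called higher and 1 lower, 4.69% beside 15.0%, and in Prph rd2 none of 66 was called. There, 26 of these genes had an unadjusted p under 0.05 and 16 an adjusted p under 0.05 (9.70% of all genes reached one) without the fold threshold, and the DESeq2 Wald test called 0. The low counts depended on single samples. In Pde6b rd1 the count of 3 became 6 without C3H sample 2 and 5 without Pde6b rd1 sample 2, and in Prph rd2 it became 2 without Prph rd2 sample 2 and 1 without C3H sample 1 or 2 or Prph rd2 sample 1 or 3.

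**Figure D3:**
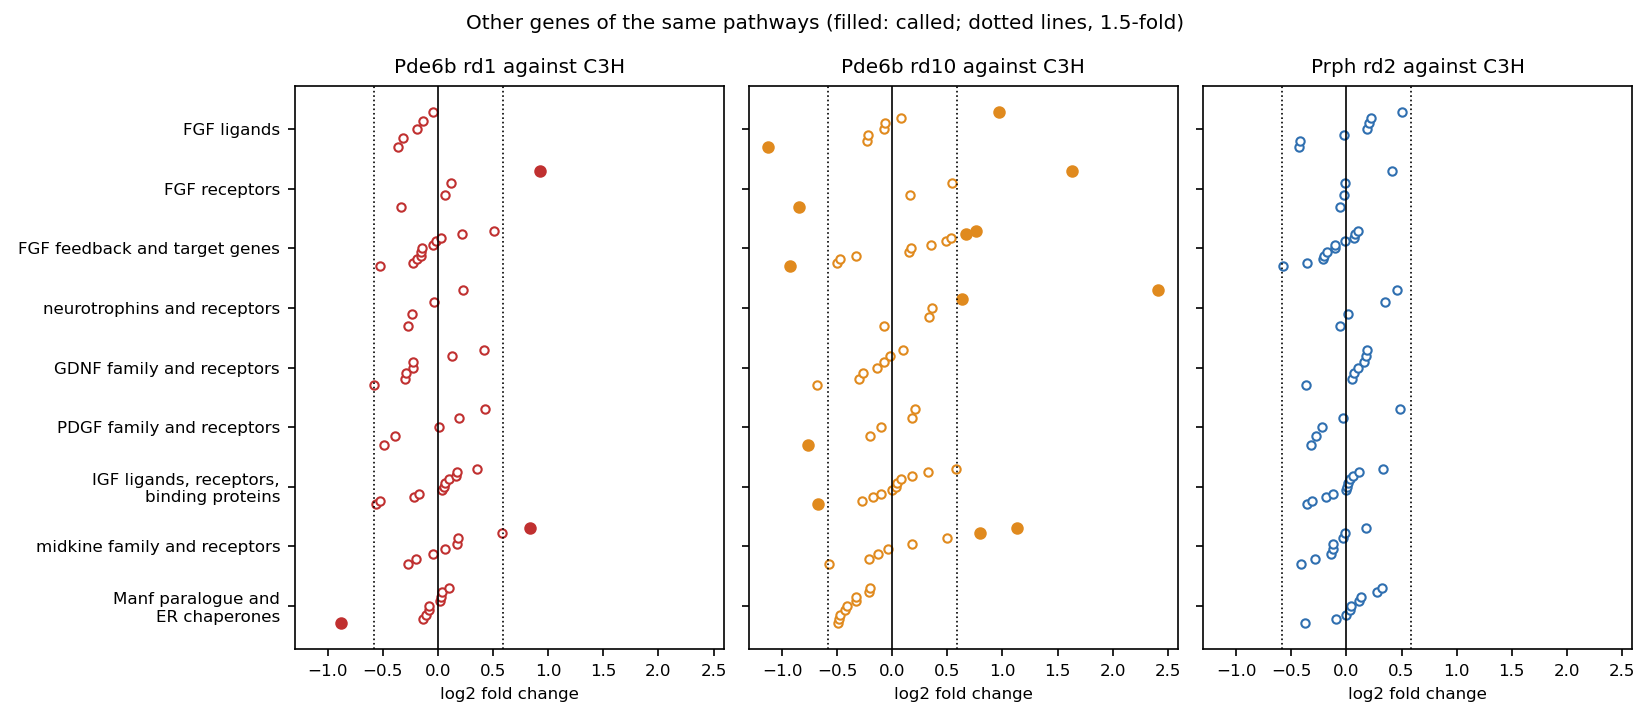
log2 fold change over C3H of the tested genes of each of 9 pathway lists, 1 circle a gene, in the 3 models, with filled circles for called genes and dotted lines at 1.5-fold. The Pde6b rd10 panel has 13 filled circles, 8 of them to the right, the Pde6b rd1 panel has 3 and the Prph rd2 panel has none.

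Among the FGF receptors, Fgfr2 rose in Pde6b rd10 from 38 to 50 counts in C3H to 116 to 156 (log2 fold change 1.63, SE 0.15, adjusted p = 8.08e-09), beside Fgfr1. Fgfr4 fell (-0.84, SE 0.24, adjusted p = 0.00616), with 18 to 39 counts in Pde6b rd10. Fgfr3 was called higher in Pde6b rd1 (0.92, SE 0.36, adjusted p = 0.0415), on 8 to 25 counts in both groups, and the call was lost without C3H sample 1 (0.82) or 3 (0.83) or Pde6b rd1 sample 1 (0.74). Of 7 FGF ligands tested in Pde6b rd10 beyond the set, Fgf3 was called higher (0.96, SE 0.33, adjusted p = 0.0177), on 10 to 31 counts and not without Pde6b rd10 sample 3 (0.68), and Fgf20 lower (-1.12, SE 0.29, adjusted p = 0.00257), on 12 to 34 counts.

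FGF feedback and target genes moved in both directions in Pde6b rd10. The adjusted p was under 0.05 for all 11 tested, 7 with a positive and 4 with a negative log2 fold change, where 54.1% of all genes reached such an adjusted p, and the median was 0.17. Il17rd, which encodes the FGF antagonist Sef (0.76, SE 0.10, adjusted p = 2.18e-06), and Spry1, a Sprouty (0.67, SE 0.10, adjusted p = 5.60e-06), were called higher, Spry1 not without C3H sample 1 (0.58). Spry2, another Sprouty, was called lower (-0.93, SE 0.04, adjusted p = 1.99e-13), from 2491 to 2950 counts in C3H to 1296 to 1658. Dusp6, a phosphatase of the MAP kinase ERK, had a log2 fold change of 0.53 (adjusted p = 1.48e-07), under the fold threshold. In Pde6b rd1 and in Prph rd2 none of the 11 was called, where 15.0% and 4.57% of all genes were. The adjusted p was under 0.05 for 7 of them in Pde6b rd1 and 4 in Prph rd2, where 43.2% and 9.70% of all genes reached one.

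Among the other neurotrophins and their receptors, Ntf3, neurotrophin 3, rose in Pde6b rd10 from 0 to 7 counts in C3H to 15 to 18 (2.41, SE 0.53, adjusted p = 0.000593). None of 7 GDNF family genes was called in Pde6b rd1, Pde6b rd10 or Prph rd2, where 15.0%, 23.9% and 4.57% of all genes were. Of these 7, 5, 2 and 2 had an unadjusted and 4, 1 and 0 an adjusted p under 0.05 in the 3 models. Pdgfc, a platelet-derived growth factor, fell in Pde6b rd10 (-0.76, SE 0.12, adjusted p = 1.88e-05), as did Igfbp5, an IGF-binding protein (-0.67, SE 0.04, adjusted p = 2.17e-11). Of the genes listed with midkine, the heparan sulfate proteoglycan Sdc1 rose in Pde6b rd10 (1.13, SE 0.22, adjusted p = 0.000228) and in Pde6b rd1 (0.83, SE 0.24, adjusted p = 0.00795), on 20 to 71 counts in these groups and C3H, and Sdc4 rose in Pde6b rd10 (0.79, SE 0.04, adjusted p = 2.36e-12). Cdnf, the paralogue of Manf, fell in Pde6b rd1 (-0.88, SE 0.20, adjusted p = 0.000844). The 9 genes listed with Manf, Cdnf and 8 chaperones and other proteins of the endoplasmic reticulum, had log2 fold changes of -0.49 to -0.20 in Pde6b rd10, where none was called (23.9% of all genes were) and 7 had an adjusted p under 0.05 (54.1% of all genes did).

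Marker genes of retinal cell types moved with some of these results. The marker lists were chosen with earlier results of these data known, so that their counts of called genes are description and no independent support. Photoreceptor and glial markers were present in every sample and lens markers summed to at most 5.38 CPM. In Pde6b rd10, 8 of 8 markers of reactive Müller glia and astrocytes were called higher, and their summed level was 1209 to 1293 CPM against 286 to 312 in C3H, 289 to 294 in Pde6b rd1 and 244 to 275 in Prph rd2. Of 10 microglia and macrophage markers, 9 were called higher in Pde6b rd10, with a sum of 205 to 230 CPM against 64.1 to 66.6 in C3H. Rod markers in Pde6b rd10 summed to 22359 to 23449 CPM against 26421 to 27446 in C3H, with 3 of 8 called lower. Cone markers summed to 748 to 759 CPM against 482 to 490 in C3H, with 3 of 6 called higher. Astrocyte markers summed to 371 to 406 CPM against 288 to 306, but most of this sum was Aldoc (log2 fold change 0.49, not called). Of the 5 astrocyte markers, Slc39a12 (0.68) was called higher, while S100b (-0.36), Pdgfra (-0.20) and Pax2 (-0.11) were negative, and the median was -0.11. Müller glia markers summed to 3163 to 3263 CPM against 3693 to 3792, with 1 of 8 called lower, and endothelial and pericyte markers to 540.3 to 549 against 698 to 705, with 1 of 6 called lower. Pigment epithelium markers summed to 279.6 to 285 CPM against 357 to 367, with 0 of 5 called. Most of this sum was Rlbp1 (log2 fold change -0.38), which is also on the Müller glia list. Rgr (-0.52) and Rpe65 (-0.47) were lower as well, while Ttr (0.07) and Pmel (0.08) were not. Ganglion cell markers summed to 877 to 886 CPM against 914 to 932, with 1 of 6 called lower. All of these sums differed from C3H in the group with the higher Fgf2, Fgfr1, Bdnf and Ntrk2 and the lower Manf. The part of these markers in those results was not tested.

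In Pde6b rd1, where Fgf1 was lower and Mdk higher, rod markers summed to 13023 to 13110 CPM, with 5 of 8 called lower, and Müller glia markers to 1986 to 2056 CPM against 3693 to 3792 in C3H, with 4 of 8 called lower. Cone markers summed to 285 to 294 CPM against 482 to 490 in C3H, with 4 of 6 called lower. Astrocyte, endothelial and pericyte, pigment epithelium and ganglion cell markers also summed to less than in C3H, without overlap. Rlbp1 again made up most of the pigment epithelium sum, where 3 of 5 markers were called lower. Aldoc made up most of the astrocyte sum. Of the astrocyte markers, 2 had a negative and 1 a positive log2 fold change with an adjusted p under 0.05. The sums of the reactive glial and the microglial markers in Pde6b rd1 overlapped with those of C3H. In Prph rd2, where Fgf1 stood highest, rod markers summed to 17106 to 18269 CPM and Müller glia markers to 3997 to 4065 CPM, above C3H with none of 8 called. The summed cone markers, at 496 to 519 CPM, were above C3H, and the summed reactive glial markers and microglial markers, the latter at 54.6 to 57.0 CPM, were below it, without overlap. Single markers moved both ways. Of 6 cone markers 0 were called, with a median log2 fold change of 0.01, and of 7 reactive glial markers tested 0 were called, with a median of -0.05. Of 10 microglial markers, with a median of -0.24, only Tmem119 was called, and it was higher (0.84, adjusted p = 0.0255). The part of these markers in the results was not tested.

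**Figure D4:**
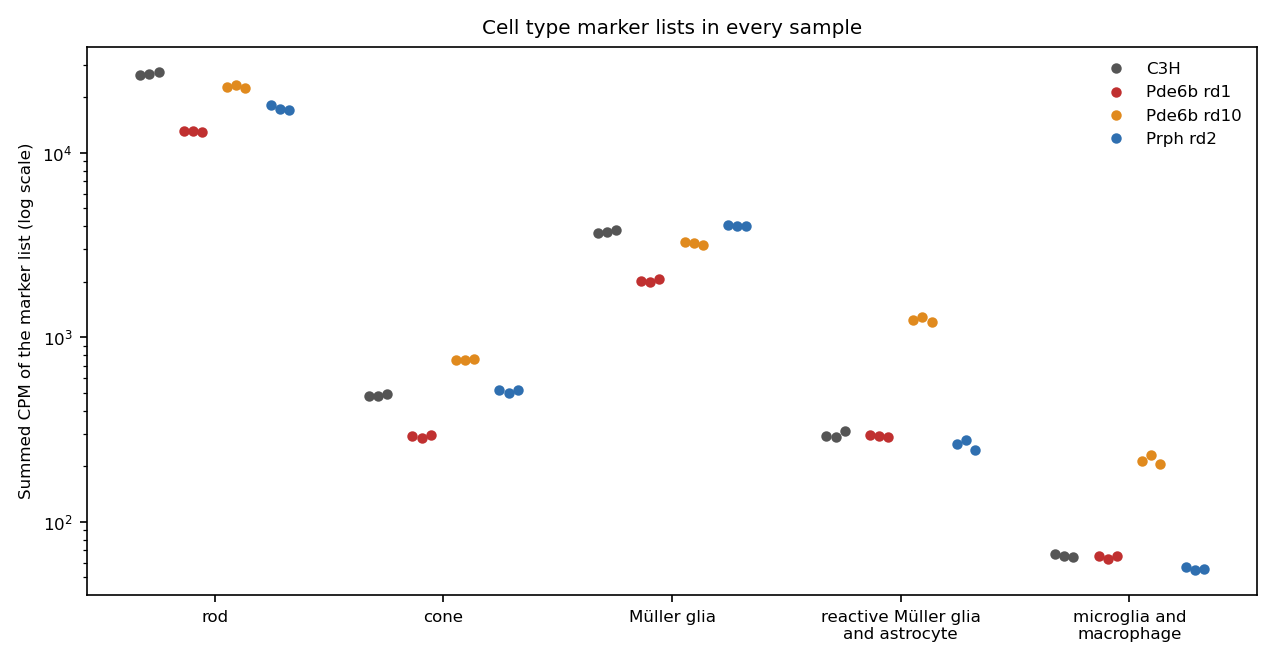
Summed CPM (log axis) of 5 cell type marker lists in every sample, 1 dot a sample, coloured by group (C3H grey, Pde6b rd1 red, Pde6b rd10 orange, Prph rd2 blue). The reactive glial list lies at 1209 CPM or more in Pde6b rd10 and at 312 CPM or less in all other groups, the microglial list is also highest there, and the rod list is lowest in Pde6b rd1.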

How the data were processed

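The 10 genes, the pathway lists and the marker lists were chosen with earlier results of these data known. Per the labels and methods, rRNA-depleted directional libraries of whole retina were sequenced; the authors aligned the reads to GRCm38, and the deposited counts are reads per gene from HTSeq 0.11.2, not normalized. The FPKM values were computed by the authors from those counts. The deposited circRNA junction counts (TopHat2 2.1.1) were used as given, and the TPM values that the authors made from them were not used. Counts were tested in edgeR 4.0.16 (R 4.3.3) with TMM normalization, filterByExpr and the quasi-likelihood test, each model against the 3 C3H samples, and models against each other in a fit of all 12. CPM values are scaled by TMM. Checked on simulated data, these steps found 94 to 98% of 2-fold changes. There, all genes of a comparison shared a common spread, and the changes were placed in genes that passed the filter. Genes with a wider spread of their own were not simulated, and the share found among them is not known. Named were all 10 genes and, per pathway list and comparison with C3H, at most 4 called genes with the smallest p. A called pathway gene is not reported here by name. Alternatives used DESeq2 1.42.0, limma 3.58.1 after adding 1 or 0.1 to FPKM on the log2 scale, other scalings, filters, thresholds and samples. Figures used matplotlib 3.10.9.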

Additional observations from a re-analysis of the deposited data

Results flagged for a closer look

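Of the differences between models that passed the contrast, that of Fgf2 was the largest in both contrasts with Pde6b rd10, and that of Fgf1 between Prph rd2 and Pde6b rd1. On the log2 scale, Pde6b rd10 differed from Pde6b rd1 by 1.31 for Fgf1, 4.96 for Fgf2, 1.15 for Fgfr1, 1.25 for Bdnf, 0.65 for Ntrk2 and -0.76 for Manf. Prph rd2 differed from Pde6b rd1 by 1.70 for Fgf1, 0.81 for Fgf2 and -0.97 for Mdk, and from Pde6b rd10 by -4.16 for Fgf2, -0.98 for Fgfr1, -0.71 for Bdnf and 0.63 for Manf. In each of these 13 cases 1 model is set directly against another, so that mutation, day and sex makeup, and for some pairs background, change together. In the circRNA table, which no comparison above uses, mmu_circ_0004699 of Ntrk2 had 4 junction reads in Pde6b rd10 sample 3, 2 in Pde6b rd1 sample 1 and 0 in the other 10 samples, those of C3H included.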

How the results depend on the processing

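For single genes, 1404 values under alternatives were compared with those reported, and 1337 kept their side of the threshold, 36 lost and 31 gained a call. Among the 1337, 22 values that were not called changed sign, and 0 called values did. Fgf2 and Fgfr1 in Pde6b rd10 and Fgf1 and Mdk in Pde6b rd1 kept their calls against C3H in every alternative run. Ntrk2 in Pde6b rd10 was not called with limma on log2(FPKM + 1) (0.55), with no filter on low counts (0.58) and against the C3H sample of the same labelled day alone (0.58), and Manf was not called with library totals only (-0.55) or with limma with 1 (-0.50) or 0.1 added (-0.55). Bdnf in Pde6b rd10 was not called with limma with 1 added (0.53). Fgfr3 in Pde6b rd1 was not called with the DESeq2 Wald test (0.93) or limma with 0.1 added (0.48). Nor was it called with a term for the share of bases at Q30 (0.84). Against the C3H sample labelled day 13 alone its value was 1.12.

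With limma on log2(FPKM + 1), which understates changes of low genes, 2 of the 10 genes were called in Pde6b rd10 and 2 between Prph rd2 and Pde6b rd10, and of the pathway genes 0 in Pde6b rd1 and 5 in Pde6b rd10. With an adjusted p under 0.05 and no fold minimum, 6 of the 10 passed in Pde6b rd1, 2 in Prph rd2, 5 between Prph rd2 and Pde6b rd1 and 8 between Prph rd2 and Pde6b rd10, and of the pathway genes 33, 40 and 16 in Pde6b rd1, Pde6b rd10 and Prph rd2. In Pde6b rd1, 6 pathway genes were called with no filter and 5 with all 12 samples in 1 fit, and in Prph rd2, 3 against the C3H sample of the same labelled day alone. Leaving out 1 sample gave 2 to 3 of the 10 in Pde6b rd1, 4 to 6 in Pde6b rd10 and 0 in Prph rd2, and 2 to 6, 13 to 16 and 0 to 2 pathway genes in the 3 models. The cause of these shifts was not tested. Over all genes, the number called against C3H was 1097, 2035 and 166 in Pde6b rd1, Pde6b rd10 and Prph rd2 with limma on log2(FPKM + 1), against 2749, 4479 and 850, and in Prph rd2 it was 384 with the adjusted p and the fold threshold, 1300 with no filter and 1435 without Prph rd2 sample 2.

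With the replicate block, 2, 5 and 0 of the 10 genes were called in Pde6b rd1, Pde6b rd10 and Prph rd2, and 6, 3 and 4 between models. Deviations of same-numbered samples correlated at -0.105 to 0.299, so that the numbers were not taken as pairs. Genes near 3 counts, such as Gdnf, are limited by depth.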
